A study of Mus musculus with 4 samples.

Results

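Sirt1, Sirt2 and Sirt3, the sirtuin genes of the mouse adipogenesis PCR array, were described across the livers of the diet study. They were picked by gene symbol and are 3 of the 84 genes on the array. All 3 had a Ct in each of the 4 samples. The mice were C57BL/6J males aged 2 months, kept for 5 weeks on a normal calorie diet (ND, 10% kcal from fat) or a high fat diet (HFD, 60% kcal from fat). On each diet, 3 of 6 mice received the *mol*-miR pool, miRNAs extracted from *Moringa oleifera* seeds, by gavage every 2 days, and what the untreated mice were gavaged with is not given. The 4 groups were HFD and ND, each with the *mol*-miR pool (written HFD + pool and ND + pool) or without it, and each was represented by 1 liver sample. How many mice contributed to a sample is not stated. Since no group had a replicate, groups could not be tested against each other and no difference below carries a p-value. The samples are named by their labels, which no gene on this array can check. For most array genes the study describes the HFD against ND difference in the opposite direction to the one computed here from the deposited Ct values. It also reports more genes down than up in HFD + pool vs. HFD, and more up than down in HFD + pool vs. ND. The values computed here run the other way in both. An exchange of the ND and HFD columns or labels could not be told apart from a difference between diets. The sign of HFD vs. ND is therefore not settled, and neither is which samples the other comparisons set against each other. All comparisons are given as the columns are named.

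Sirtuins are enzymes that use NAD+ to remove acetyl and related groups from lysines of other proteins, which ties their activity to the energy state of the cell. SIRT1 is mainly nuclear and deacetylates transcriptional regulators of hepatic glucose and lipid metabolism. SIRT2 is mainly cytoplasmic, with tubulin and FOXO1 among its substrates. SIRT3 lies in the mitochondrial matrix, where it acts on enzymes of fatty acid oxidation. The array measured their mRNA, so neither protein nor enzyme activity is covered here.

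The array reads a threshold cycle (Ct) from 1 well per gene and sample, and an earlier Ct means more template. The normalized Ct is the Ct minus the mean Ct of 5 housekeeping genes in the same sample, Actb, Gapdh, Gusb, Hprt and Hsp90ab1, called the reference genes. Differences between samples are given as log2 fold changes, in which 1 unit is 1 cycle or a factor of 2. A fold change above 1.5 was counted as upregulated and below 0.5 as downregulated, the limits used in the study. Beside each sirtuin's fold change and each related list's median stands its range when each reference gene was used alone. Shares of the array are given with the mean of the reference genes. Another reference moves all array genes of a comparison by the same amount, and the array was not counted again under it. In a liver homogenate, fewer cells that express a gene and less of its mRNA per cell cannot be told apart.

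The plates differed before any gene was compared. The genomic DNA control, a well for an untranscribed locus, read 26.8 in ND, 28.8 in ND + pool, 34.7 in HFD and 33.4 in HFD + pool. The positive PCR control, a well with its own template, gave a Ct in 2 of 3 wells in ND (16.9 and 17.9) and in 3 of 3 in ND + pool (18.3 to 18.4). It gave a Ct in 1 of 3 wells in HFD (21.2) and in 1 of 3 in HFD + pool (21.98). The reverse transcription control had a Ct in 2 of 3 wells in ND + pool (28.6 and 29.4) and in 0 of 3 in the other samples. Replicate control wells with a Ct were thus limited to the ND plates, where the positive control had an SD of 0.0565 cycles over 3 wells in ND + pool and 0.655 over 2 wells in ND, and the reverse transcription control had an SD of 0.559 over 2 wells in ND + pool. The array holds 4 genes read here as markers of liver parenchyma, and all had a Ct in every sample. Over the 4 samples Agt, the angiotensinogen gene, ran from 23.3 to 24.0, Ppara from 23.4 to 25.2, and the nuclear receptor genes Nr0b2 and Nr1h3 from 25.0 to 26.7 and from 20.7 to 21.8. Of the 84 array genes, 63 in ND and 55 in ND + pool had a Ct no more than 3 cycles before the genomic DNA control or after it. In HFD this held for 17 genes and in HFD + pool for 8. The array medians, shares and ranks below include these genes. The part of these plate differences in the results was not tested, except where the genomic DNA control was subtracted.

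Sirt1 had a Ct of 25.4 in ND, 27.6 in ND + pool, 28.5 in HFD and 27.4 in HFD + pool. After normalization it stood 3.77, 5.41, 6.59 and 5.21 cycles behind the reference mean in the same order. ND was thus the sample with the most Sirt1 and HFD the sample with the least, a span of 2.82 cycles (7.08-fold). Each of the 5 reference genes used alone left HFD at the bottom, and 4 of 5 left ND at the top. The exception was Gapdh, with which HFD + pool came first. The pool samples of both diets lay in between and differed by 0.21 (log2), an order that 2 of 5 reference genes reversed. Among the 84 genes, Sirt1 ranked 40th to 57th by Ct and so stayed in the middle of the array.

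The distance of Sirt1 from the genomic DNA control was small on the ND plates. Its Ct came 1.39 cycles before that control in ND and 1.25 cycles before it in ND + pool. A template as abundant as that of the control would make up 38.1% and 42.0% of such a signal. In HFD and HFD + pool the distance was 6.12 and 5.94 cycles, and the corresponding share was 1.43% and 1.63%. The sample with the most Sirt1 was thus also the one with the earliest genomic DNA control.

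Sirt2 read 20.3 in ND, 20.5 in ND + pool, 21.9 in HFD and 20.2 in HFD + pool. Relative to the reference mean these were -1.35, -1.63, 0.01 and -2.06 cycles. The HFD sample stood apart with the least Sirt2, under each of the 5 reference genes. The other samples lay within 0.72 (log2) of each other, and which of them was highest depended on the reference, with HFD + pool first under 3, ND under 1 and ND + pool under 1. Sirt2 was among the 4 earliest genes of the array on every plate. Its Ct came between 6.51 cycles (ND) and 13.2 cycles (HFD + pool) before the genomic DNA control, so a template at the level of that control would account for at most 1.10% of its signal. Among the reference genes, which enter the normalized values, this distance in ND was 2.065 cycles for Actb and 2.71 for Gusb. For Hprt, Gapdh and Hsp90ab1 it was 4.98, 7.60 and 8.46 cycles.

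Sirt3 gave a Ct of 23.3 in ND, 23.6 in ND + pool, 23.3 in HFD and 22.2 in HFD + pool. Normalized, it stood at 1.71, 1.49, 1.34 and -0.02 cycles from the reference mean. HFD + pool held the most Sirt3 with each of the 5 reference genes. The remaining samples spanned 0.37 (log2), and their order changed with the reference. Of the sirtuins, Sirt3 had the narrowest span over the 4 samples, 1.73 cycles against 2.08 for Sirt2 and 2.82 for Sirt1, and the median span of an array gene was 2.76. A template at the level of the genomic DNA control would make up 9.11% of the Sirt3 signal in ND, 2.77% in ND + pool and under 0.05% in the HFD samples (0.0375% and 0.0433%).

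**Figure D1:**
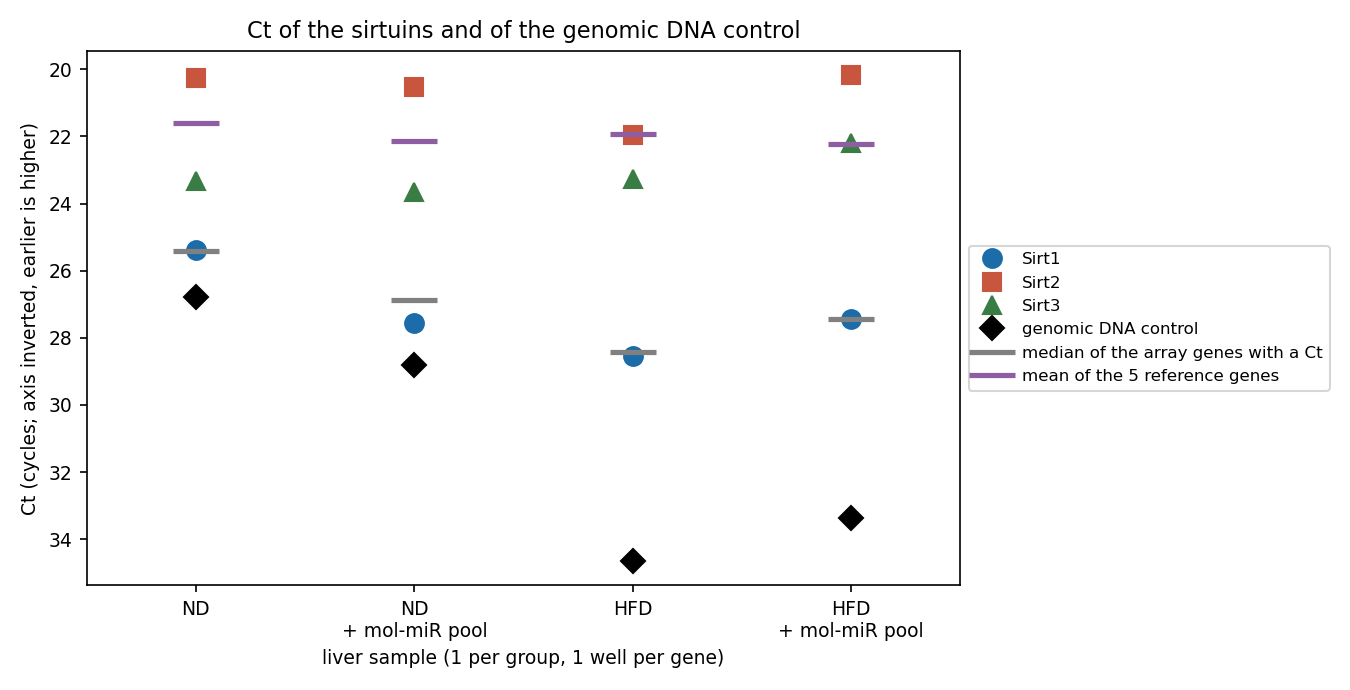
Ct in cycles (vertical axis, inverted so that more template is higher) of Sirt1, Sirt2, Sirt3 and the genomic DNA control in the 4 liver samples, with the median of the array genes and the mean of the reference genes as bars. Sirt1 sits 1.39 and 1.25 cycles from the genomic DNA control in ND and ND + pool and about 6 cycles from it in the HFD samples, while Sirt2 stays at least 6.51 cycles away.

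The genes can also be set against each other within a plate, which needs no reference gene. Primers differ between genes, so the size of such a gap says nothing of which mRNA was more abundant, but its movement between samples does not depend on the normalization. The Ct of Sirt1 minus that of Sirt3 was 2.06 cycles in ND, 3.92 in ND + pool, 5.26 in HFD and 5.23 in HFD + pool. The ratio of Sirt3 to Sirt1 was thus 3.19 (log2) higher in HFD than in ND, and between the HFD samples it differed by -0.02. The Ct of Sirt1 minus that of Sirt2 was 5.12 cycles in ND and 7.04, 6.58 and 7.27 in ND + pool, HFD and HFD + pool. ND thus had the smallest gap. The genomic DNA control was not subtracted here. Sirt1 lay 1.39 cycles before it in ND and 1.25 in ND + pool. After its subtraction, the log2 fold change in HFD vs. ND was -2.29 for Sirt1, -1.48 for Sirt2 and 0.37 for Sirt3. Without subtraction these were -2.82, -1.36 and 0.37, so Sirt1 was then farther from both. The Ct of Sirt2 minus that of Sirt3 was alike in the ND samples, -3.05 and -3.12 cycles, and closer to 0 in HFD (-1.32) and HFD + pool (-2.04). In that last pair of genes, Sirt2 lay 6.51 cycles and Sirt3 3.46 cycles before the genomic DNA control in ND. In HFD the distances were 12.7 and 11.4 cycles.

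**Figure D2:**
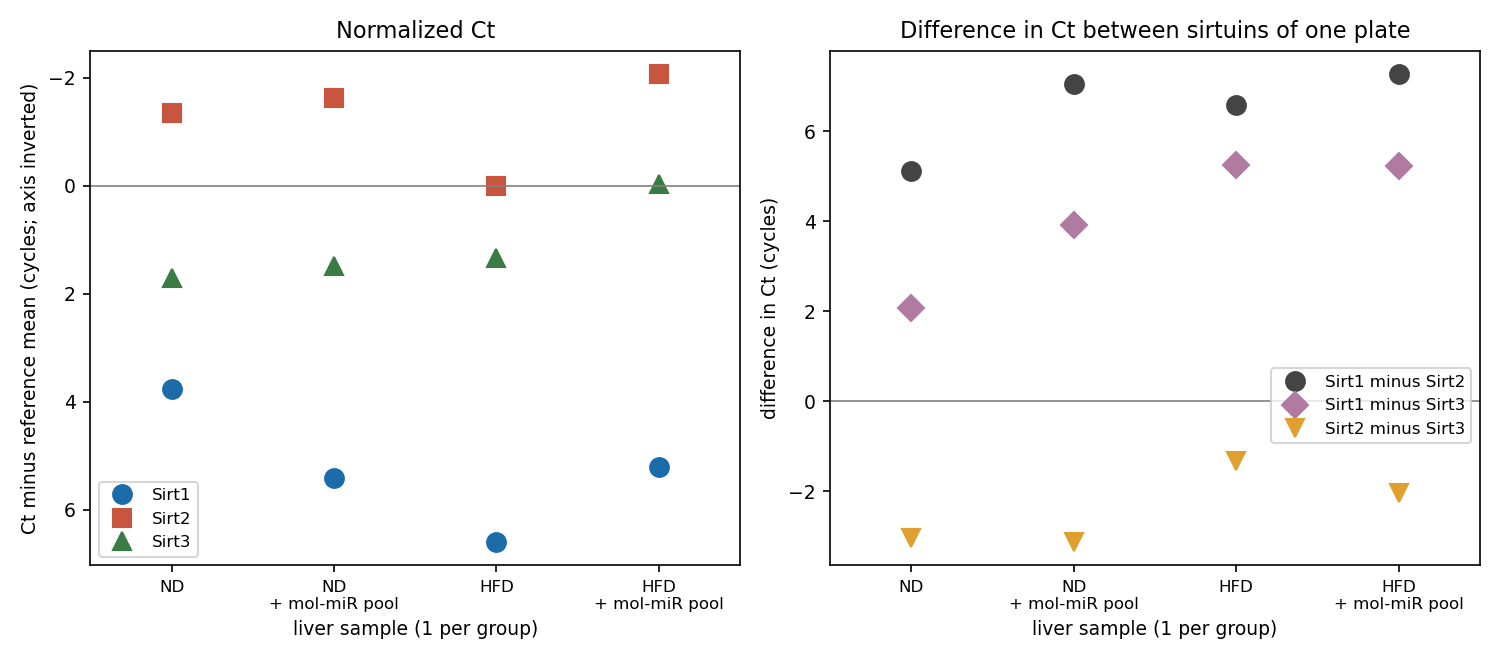
Left, normalized Ct in cycles (axis inverted) of the sirtuins in the 4 liver samples; right, the difference in Ct in cycles between each pair of sirtuins on the same plate. Sirt1 minus Sirt3 goes from 2.06 cycles in ND to 5.26 in HFD and 5.23 in HFD + pool.

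The first comparison sets the high fat diet sample without the pool against the normal diet sample without it. In HFD vs. ND, Sirt1 had a log2 fold change of -2.82 (single references -3.79 to -2.08) and Sirt2 of -1.36 (-2.33 to -0.62). Sirt3 had a value of 0.37 (-0.60 to 1.11), between the limits. Hence 2 of 3 sirtuins were downregulated, where 72.6% of the 84 genes were, and 0 of 3 were upregulated, where 3.57% were. The median log2 fold change of the array was -2.53. Against that median Sirt1 lay at -0.30, Sirt2 at 1.17 and Sirt3 at 2.90, and 5 genes ranked above Sirt3. Scaled to the array's median Ct, Sirt1 was at -0.14, Sirt2 was upregulated at 1.33 and Sirt3 reached 3.06. The genomic DNA control came 7.88 cycles later in HFD than in ND, and subtracting its signal from every well gave -2.29 for Sirt1, -1.48 for Sirt2 and 0.37 for Sirt3.

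On the normal diet, the sample with the pool was set against the one without it, ND + pool vs. ND. Sirt1 was downregulated, with a log2 fold change of -1.65 (-2.18 to -0.91), a fold change of 0.320. Sirt2 had a value of 0.28 (-0.25 to 1.02) and Sirt3 of 0.21 (-0.32 to 0.95), both between the limits and of either sign depending on the reference. The downregulated share was 1 of 3 sirtuins against 48.8% of the array, and the upregulated share was 0 of 3 against 4.76%. Relative to the array median of -0.99, Sirt1 lay at -0.66, Sirt2 at 1.27 and Sirt3 at 1.20. Only 5 array genes ranked above Sirt2 and 9 above Sirt3, while 71 ranked above Sirt1. After subtraction of the genomic DNA control the value for Sirt1 was -1.83. With scaling to the array's median Ct, Sirt1 was between the limits (-0.73), and Sirt2 (1.20) and Sirt3 (1.13) were upregulated.

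On the high fat diet, HFD + pool vs. HFD, the 3 sirtuins were upregulated, as were 84.5% of the array genes. Of the sirtuins 0 of 3 were downregulated, where 1.19% of the array genes were. For the array the study reports more genes down than up in this comparison. The log2 fold change was 1.38 for Sirt1 (0.58 to 2.39), 2.08 for Sirt2 (1.27 to 3.08) and 1.36 for Sirt3 (0.56 to 2.37), or 2.61-, 4.22- and 2.57-fold. The sign of each was the same with all 5 reference genes. The array median was 1.46, from which Sirt1 differed by -0.07, Sirt3 by -0.09 and Sirt2 by 0.62. None of the sirtuins was thus far from the middle of the array in this comparison, with 43, 26 and 45 genes ranked above Sirt1, Sirt2 and Sirt3. Subtracting the genomic DNA control left 1.38 for Sirt1, 2.08 for Sirt2 and 1.36 for Sirt3. Scaled to the array's median Ct, Sirt2 alone remained upregulated (0.82), and Sirt1 (0.13) and Sirt3 (0.11) were between the limits.

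The treated high fat liver was also set against the untreated normal diet, HFD + pool vs. ND. Here the sirtuins split, with Sirt3 (log2 fold change 1.73, single references 0.52 to 3.28) and Sirt2 (0.72, -0.50 to 2.27) upregulated and Sirt1 (-1.44, -2.65 to 0.11) downregulated. Upregulated genes were 14.3% of the array and downregulated genes 53.6%. Sirt3 had the second highest value of the 84 genes. Sirt2 was lower rather than higher with Hsp90ab1 alone, and Sirt1 was marginally higher rather than lower with Gapdh alone, whereas Sirt3 was higher with all 5 reference genes. The subtraction of the genomic DNA control left Sirt1 at -0.91, between the limits, and Sirt3 at 1.73. The array's median Ct as the scale also put Sirt1 between the limits, at -0.01, and gave 2.15 for Sirt2 and 3.16 for Sirt3.

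Between the pool-treated livers, HFD + pool vs. ND + pool, the log2 fold change of Sirt3 was 1.52 (0.84 to 2.33), and 2 array genes ranked above it. With the mean of the reference genes it was the sole sirtuin past the limit, 1 of 3 against 23.8% of the array, and 0 of 3 were downregulated against 34.5%. All 3 were past it with Gapdh alone or with scaling to the array's median Ct, the latter giving 0.70 for Sirt1, 0.93 for Sirt2 and 2.01 for Sirt3. Sirt2 was at 0.43 (-0.24 to 1.25) and Sirt1 at 0.21 (-0.47 to 1.02). The value for Sirt1 became 0.93, above the limit, once the genomic DNA control was subtracted. Each of the 4 samples enters more than 1 of the 5 comparisons, so these are not independent of each other.

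**Figure D3:**
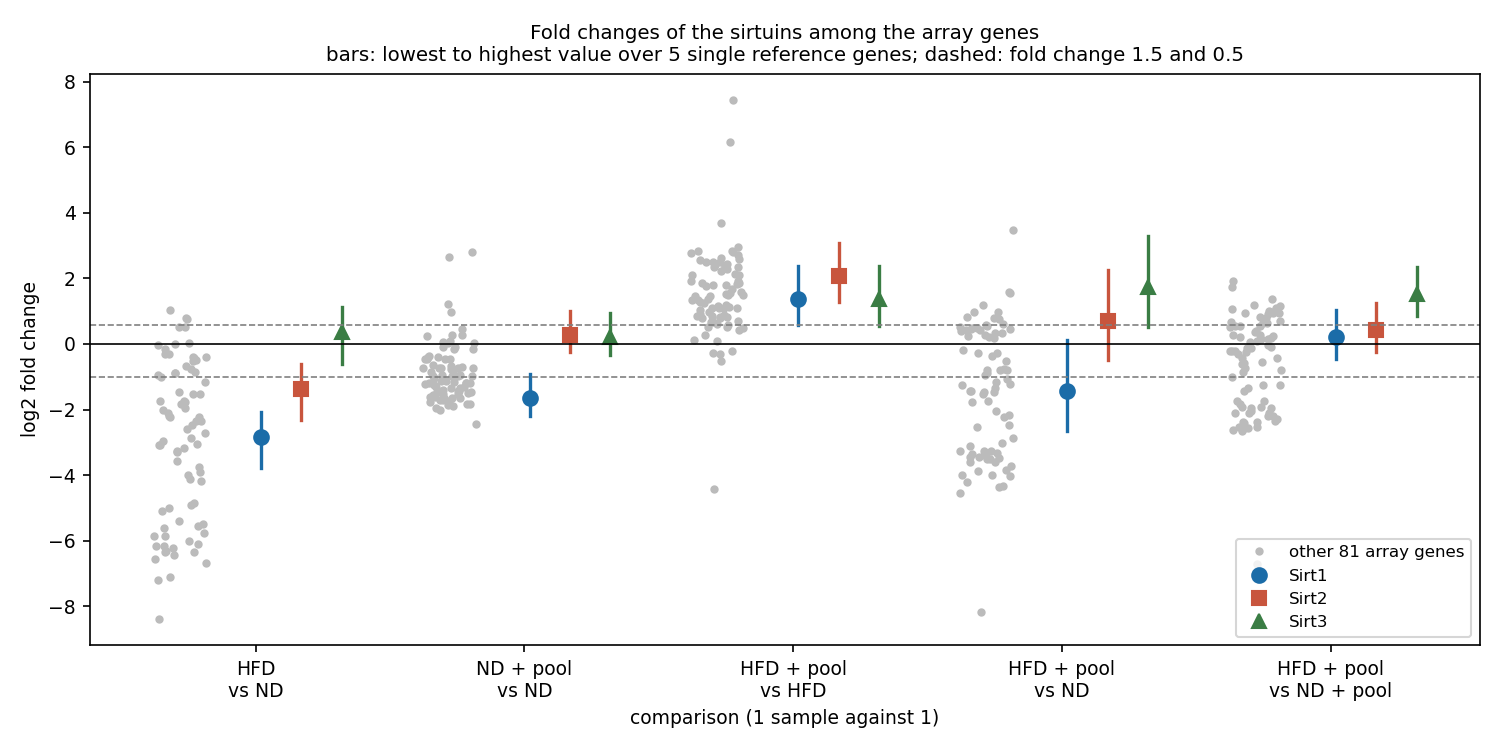
Log2 fold change (vertical axis) of each sirtuin in the 5 comparisons, beside the other 81 array genes in grey; bars run from the lowest to the highest value over the 5 single reference genes and dashed lines mark fold changes of 1.5 and 0.5. Sirt3 lies near the top of the array in HFD vs. ND (0.37 against an array median of -2.53) and HFD + pool vs. ND (1.73), and all sirtuins lie in the middle in HFD + pool vs. HFD.

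Genes whose products work with SIRT1 were read from a list of 10, namely Ppargc1a, Foxo1, Nr1h3, Srebf1, Ppara, Pparg, Rb1, Irs2, Creb1 and E2f1. In HFD vs. ND, 5 of 10 were downregulated, against 72.6% of the array, and 1 of 10 was upregulated, against 3.57%. The median log2 fold change of the list was -1.24 (-2.21 to -0.50), with 3 to 9 genes downregulated over the single references, and that of the array was -2.53. The lowest were Rb1 (-2.95), a cell cycle repressor, and Creb1 (-2.86), a factor of the fasting response. In ND, Rb1 lay 1.09 cycles and Creb1 0.91 cycles before the genomic DNA control. Srebf1, the gene of a main activator of lipogenesis, was at 0.75, and at -0.21 with Actb alone. Scaled to the array's median Ct 7 of 10 were instead upregulated and 0 downregulated, and the array's share on that scale was not counted. In ND + pool vs. ND, 2 of 10 (Rb1 at -1.52 and Creb1 at -1.19) were downregulated, against 48.8% of the array, and this count ran from 0 to 7 over the single references. The list median was -0.74 (-1.28 to -0.005) against -0.99 for the array, and 0.17 scaled to the array's median Ct.

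In HFD + pool vs. HFD, 7 of these 10 genes were upregulated, against 84.5% of the array, and 0 downregulated. The list median was 1.09 (0.29 to 2.10) against 1.46 for the array. With Hprt or Hsp90ab1 alone 3 of 10 were upregulated, and with Gapdh or Actb alone 10 of 10. The array's own share under each of these references was not counted. The highest values were those of Pparg (2.49) and Ppara (1.87), receptors that govern fat storage and fatty acid oxidation. Rb1 was at 0.08, with a sign that changed under 4 of 6 other references. The median of the list was -0.16 once scaled to the array's median Ct. On the ND plate 4 of the 10 genes lay no more than 3 cycles before the genomic DNA control, and on the HFD plate 0 did.

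For SIRT3 the list held Ppargc1a and Ppargc1b, coactivators of mitochondrial biogenesis, the respiratory factor gene Nrf1, and Ucp1, the uncoupling protein of brown fat. In HFD vs. ND, Nrf1 (-2.20) and Ucp1 (-6.14) were downregulated, 2 of 4 against 72.6% of the array, whereas Ppargc1a (-0.87), Ppargc1b (-0.68) and Sirt3 itself (0.37) were between the limits. The list median was -1.53 (-2.50 to -0.79) against -2.53 for the array, with 2 to 4 genes downregulated over the single references. Scaled to the array's median Ct, 2 of 4 were upregulated and 1 downregulated. In HFD + pool vs. HFD, 4 of 4 genes were upregulated, against 84.5% of the array, by log2 fold changes from 0.85 (Nrf1) to 2.11 (Ucp1). The list median was 1.13 (0.33 to 2.14) against 1.46 for the array. With Hprt or Hsp90ab1 alone, or scaled to the array's median Ct, 1 of the 4 was upregulated, and the array's share was not counted there. In ND, Nrf1 came 1.10 cycles and Ucp1 0.96 cycles before the genomic DNA control. Ucp1 came no more than 2.92 cycles before it on any plate.

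**Figure D4:**
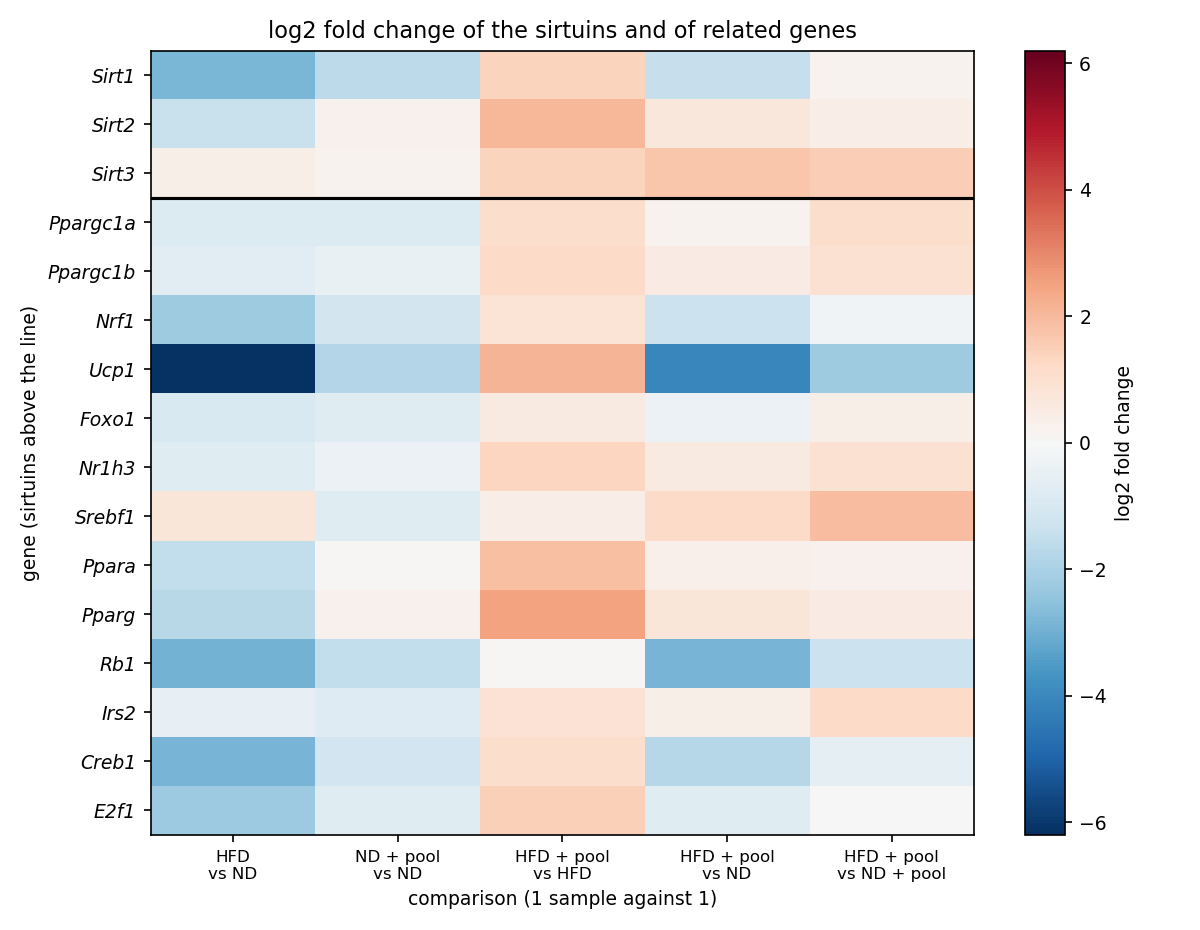
Log2 fold change, as colour, of the sirtuins (above the line) and of the 13 genes of both related lists (below it) in the 5 comparisons. Most cells are blue in HFD vs. ND, where Ucp1 is lowest at -6.14, and red in HFD + pool vs. HFD, where Pparg is highest at 2.49.

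The normalized Ct profile of each sirtuin over the 4 samples was also matched against the other array genes, by the root mean square difference of the profiles after centring. Among the profiles nearest to Sirt1 were those of Lpl (0.226 cycles), the lipoprotein lipase gene, and Insr (0.238), the insulin receptor gene. Among those nearest to Sirt2 were Ppara (0.135) and Cebpb (0.140), a factor of adipocyte and liver gene expression. Sirt3 was closest to Acacb (0.283), which makes the malonyl-CoA that restrains fatty acid oxidation, then Taz (0.291) and Klf3 (0.386). In ND, Acacb, Taz and Klf3 came 0.84, 1.96 and 1.08 cycles before the genomic DNA control, and Insr 0.92 cycles before it. Lpl, Ppara and Cebpb came 4.46, 3.41 and 7.05 cycles before it. Between the sirtuins the root mean square difference was 0.747 cycles for Sirt2 and Sirt3, 0.839 for Sirt1 and Sirt2 and 1.30 for Sirt1 and Sirt3. The genes above were picked as the nearest, so larger values between the sirtuins follow in part from that choice. By nearness to Sirt1, Sirt2 ranked 34th and Sirt3 59th among the other array genes. To Sirt2, Sirt3 ranked 32nd and Sirt1 39th, and to Sirt3, Sirt2 ranked 22nd and Sirt1 44th. The differences between profiles describe 4 samples that share plates and reference genes.

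Transcripts of adipocytes were looked at because fat can be carried along with a liver. The 6 markers on the array were Adipoq, Lep, Retn, Cfd, Fabp4 and Adig, and their summed level relative to the reference genes was 0.750 in ND, 1.09 in ND + pool, 0.129 in HFD and 1.58 in HFD + pool. The HFD sample, in which Sirt1 and Sirt2 were lowest, also had the lowest sum. The same held for the array as a whole. The summed level of its 84 genes was 22.3 in ND, 20.0 in ND + pool, 12.0 in HFD and 29.5 in HFD + pool. The highest adipocyte sum, that of HFD + pool, was mostly Cfd, the gene of complement factor D, which alone contributed 1.33. Without Cfd, left out after its values were seen, the sum of the other 5 markers was 0.630 in ND, 0.331 in ND + pool, 0.122 in HFD and 0.249 in HFD + pool. In HFD + pool vs. ND, Cfd had a log2 fold change of 3.47. Of the 6 markers, 4 were downregulated, against 53.6% of the array, and 1 was upregulated, against 14.3%. The list median was -3.54 (-4.75 to -1.98), against -1.24 for the array. No marker was undetected, and in ND 5 of 6 lay no more than 3 cycles before the genomic DNA control. The summed level of the 4 liver markers was 2.53 in ND, 2.06 in ND + pool, 1.63 in HFD and 3.51 in HFD + pool. In HFD vs. ND their log2 fold changes were 0.51 for Agt, -0.76 for Nr1h3, -1.02 for Nr0b2 and -1.53 for Ppara. The last 2 of these 4 were downregulated, against 72.6% of the array, and 0 to 3 were over the single references. Scaled to the array's median Ct, 4 of 4 were instead upregulated. Nr0b2 came 1.78 cycles before the genomic DNA control in ND. The part of either list in the sirtuin values was not tested.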

How the data were processed

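Gene expression in mouse livers was measured with the Mouse Adipogenesis RT2 Profiler PCR Array and SYBR Green. The authors deposited a score per well, the Ct as exported, without normalization, for 96 wells and 4 samples. Columns were assigned to samples by name, low-fat diet standing for ND. The second deposited table holds the authors' own fold changes between groups and was not used.

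Missing Ct values and those above 35 were set to 35 (no sirtuin had one), the mean Ct of 5 reference genes was subtracted, and a doubling per cycle was assumed. With 1 sample per group, no test was made, and depth does not apply to Ct values. Named genes were the sirtuins, the related lists, the cell type markers, the controls and the 3 nearest profiles per sirtuin, some of which are not reported here. The members and lists were chosen with earlier results of these data known. The alternatives were single reference genes, each comparison's median over jointly detected genes, raw Ct, a Ct limit of 32, subtraction of the genomic DNA control on the linear scale, an upper limit of 2 and, added after seeing the data, the mean of Gusb, Hprt and Hsp90ab1. All 84 symbols were found in RefSeq (GRCm38.p6), used for names alone because no build is named. The calculations were tested on simulated data and run in Python 3.11.15 with numpy 2.4.6, pandas 2.3.3 and matplotlib 3.10.9.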

Additional observations from a re-analysis of the deposited data

Results flagged for a closer look

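Sirt1 had pool values of opposite sign on the diets. The array median had the same pair of signs, -0.99 in ND + pool vs. ND and 1.46 in HFD + pool vs. HFD. For Sirt1 the log2 fold change was -1.65 in ND + pool vs. ND and 1.38 in HFD + pool vs. HFD, a difference of 3.03. Over the single reference genes the difference lay between 2.35 and 4.28. Seen by diet, the same 4 values give -2.82 without the pool and 0.21 with it, again a difference of 3.03. The median of this difference over the 84 genes was 2.28, and 55 genes had a smaller one than Sirt1.

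Sirt2 had a log2 fold change of -1.36 between the diets without the pool and 0.43 with it, a difference of 1.79 (single references 1.12 to 3.05), and 33 array genes had a smaller one. For Sirt3 both diet differences were above 0, and they differed by 1.15. Scaled to the array's median Ct, the diet difference with the pool minus that without it was 0.84 for Sirt1 (0.70 and -0.14), -0.40 for Sirt2 (0.93 and 1.33) and -1.04 for Sirt3 (2.01 and 3.06), so its sign turned for Sirt2 and Sirt3. Likewise, the pool difference on HFD minus that on ND was then 0.86 for Sirt1. None of these differences was tested, since each group was 1 sample.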

How the results depend on the processing

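Of the 9 values for HFD vs. ND, ND + pool vs. ND and HFD + pool vs. HFD, 1 (Sirt2 in HFD + pool vs. HFD) kept its side of the limits under all 11 alternatives. Scaled to the array's median Ct, HFD vs. ND became -0.14 for Sirt1, 1.33 for Sirt2 (the sign turned) and 3.06 for Sirt3, ND + pool vs. ND became -0.73, 1.20 and 1.13, and HFD + pool vs. HFD became 0.13 for Sirt1 and 0.11 for Sirt3. Also scaled so, HFD + pool vs. ND was -0.01 for Sirt1, and HFD + pool vs. ND + pool was 0.70 for Sirt1 and 0.93 for Sirt2. With Gapdh alone, HFD vs. ND was -0.815 for Sirt2 and 0.91 for Sirt3, ND + pool vs. ND was -0.91 for Sirt1, 1.02 for Sirt2 and 0.95 for Sirt3, and HFD + pool vs. ND turned to 0.11 for Sirt1. With Hprt alone, HFD vs. ND was -0.62 for Sirt2 and 1.11 for Sirt3, and HFD + pool vs. HFD was 0.58 for Sirt1 and 0.56 for Sirt3. With Hsp90ab1 alone, HFD + pool vs. ND turned to -0.50 for Sirt2. A reference shifts the 3 sirtuins of a comparison by the same amount. The Ct limit of 32 changed no value, as no sirtuin came that late. No paired analysis was possible because each group had 1 sample and the labels give no replicate numbers. The number of wells limits the precision.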
